A study of Mus musculus with 24 samples.

Results

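The p53 target genes analysed here are a set of 32 mouse genes, from Mdm2 and Cdkn1a to Xpc and Tigar, that p53 is known to switch on; targets of the BCL2 family were left out. Each gene was represented by the brightest probe set annotated to that gene alone over all 24 arrays. This gave 29 measured genes out of 19661 genes in the series, each with 1 probe set, and all 29 were among the 14830 genes kept after a filter on dim genes. Of the other 3, Cdkn1a lay only on a probe set annotated to 2 genes and has no value here, and Trp53 and Fdxr were not analysed here.

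The cells were fibroblasts grown out of 6 mouse embryos at E13.5. In 3 embryos both alleles of Eif4e were intact (wild type, WT), and in 3 a single one was (Eif4e+/-, called heterozygous). Untransformed cells were primary cells of early passage, and the matched cells of the same embryos had been transformed with the oncogenes Ras and Myc, so the 12 cultures formed 4 groups of 3. Every culture was grown in medium with serum and harvested in exponential growth, and the labels name no agent that damages DNA. Whether a transformed culture was a pool or a clone is not given in the sources used here. Each culture gave a total RNA array and an array of high molecular weight polysomal RNA, that is of mRNA with many ribosomes, after arrest of ribosomes with cycloheximide. All values are log2 RMA intensities of probe sets, so a difference of 1 is a doubling of intensity, and levels of different genes cannot be set against each other. The number of arrays limits the precision. The design asks how oncogenic transformation and the dose of eIF4E, the protein that binds the mRNA cap, bear on mRNA level and on polysome loading.

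p53 is a transcription factor that is held low in unstressed cells, mainly because Mdm2, itself a p53 target, marks it for degradation. DNA damage releases it, and so does oncogene signalling, in which the Arf product of Cdkn2a blocks Mdm2. Its targets stop the cell cycle, start cell death, repair DNA, adjust metabolism and, through Mdm2 and Ppm1d, switch p53 off again. Cells transformed in culture by Ras and Myc often lose p53 or Arf. The labels do not give the p53 status of these cultures.

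p53 binds pairs of a short palindromic sequence, the p53 half-site, that lie side by side or a few bases apart. In the RefSeq promoter table of build GRCm38.p6, which holds the 250 bases before and the 50 after each start site, 25 of the 32 genes had 30 windows, and 7 genes had none. At least 1 half-site lay in a window of 10 of these 25 genes (40%), against 9.55% of the 27025 genes in the table. The core CATG on its own lay in 30.0% of the members' windows and in 61.11% of all 32851 windows. Only stretches that match the half-site at every base were counted. A pair of such half-sites at most 13 bases apart lay in 1 member's window, that of Cdkn1a, which was not measured. The stretches of 60 bases below are shown because they hold the half-site, in capitals, of 4 genes that rose on transformation and of Ccng1, which did not pass the test. They lie at chr10:117710910-117710969 on the minus strand for Mdm2, chr11:85311097-85311156 on the plus strand for Ppm1d, chr9:36797310-36797369 on the minus strand for Ei24, chr13:96519378-96519437 on the minus strand for Polk and chr11:40755437-40755496 on the minus strand for Ccng1.
Mdm2: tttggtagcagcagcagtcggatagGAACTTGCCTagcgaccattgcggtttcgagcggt
Ppm1d: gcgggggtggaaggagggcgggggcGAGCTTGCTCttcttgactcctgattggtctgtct
Ei24: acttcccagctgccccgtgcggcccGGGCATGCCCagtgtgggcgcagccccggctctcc
Polk: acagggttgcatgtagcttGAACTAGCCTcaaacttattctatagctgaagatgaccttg
Ccng1: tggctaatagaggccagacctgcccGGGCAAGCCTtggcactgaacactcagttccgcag

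The capitals begin 186 bases before the start site in Mdm2, 132 in Ppm1d, 10 in Ei24, 231 in Polk and 185 in Ccng1. The half-site in Ei24 is the only 1 of these 5 with the core CATG. In Ccng1 the bases just before the capitals differ from a half-site at 1 base, so they were not marked or counted in a pair. Of the 8 measured genes with a half-site in a window, 4 were called higher in total RNA after transformation. Of the 14 with windows but no half-site, 8 were called higher and 1 lower, and of the 7 with no window 5 were called higher. Over all genes in that comparison, 15.0% were called higher and 15.8% lower. A match is a stretch of letters and not a measured binding site.

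Total RNA arrays had means of 7.465 to 7.503 and polysomal arrays of 3.776 to 3.789, so each fraction has its own common level and the difference between fractions has no absolute scale. The 2 polysomal arrays with the narrowest spread of values were those of untransformed WT embryo 1 and transformed WT embryo 3, with an SD of 1.15 and 1.25 over probe sets, against 1.28 to 1.44 for the other 10, so the latter lay close to the others. Eif4e, the targeted gene, was lower in every heterozygous than in every WT culture in total RNA, by 0.30 untransformed and 0.57 transformed (log2, n = 3 per group). The fibroblast genes Col1a1, Fn1 and Vim were bright on all 12 total RNA arrays, from 8.74, 12.42 and 12.41 upward. Of the 10 fibroblast markers Lum had a median of 5.18, below the 40th percentile of every total RNA array, and a maximum of 9.42. Its mean was 5.22 in untransformed and 6.48 in transformed cultures. Dcn, Thy1 and Pdgfrb went down to 6.18, 7.20 and 7.24. Fewer cells of a type and less RNA per cell cannot be told apart in these bulk samples.

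Transformation moved p53 target genes mostly upward in total RNA. Taking the mean of the 6 within-embryo differences, 17 of 29 genes rose and 1 fell at a Benjamini-Hochberg adjusted p under 0.05 in limma, fitted over all 14830 genes with the embryo as a block. Over all genes, 15.0% were called higher and 15.8% lower, and these shares also stand beside the counts by role below. The median difference was 0.36 among the 29 genes and 0.03 among all genes. In 18 of the 29 genes every embryo was higher when transformed, against 16.5% of all genes, and in 1, Plk2, every embryo was lower, against 15.4%. The plot of differences by embryo shows the 29 genes in order.

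**Figure D1:**
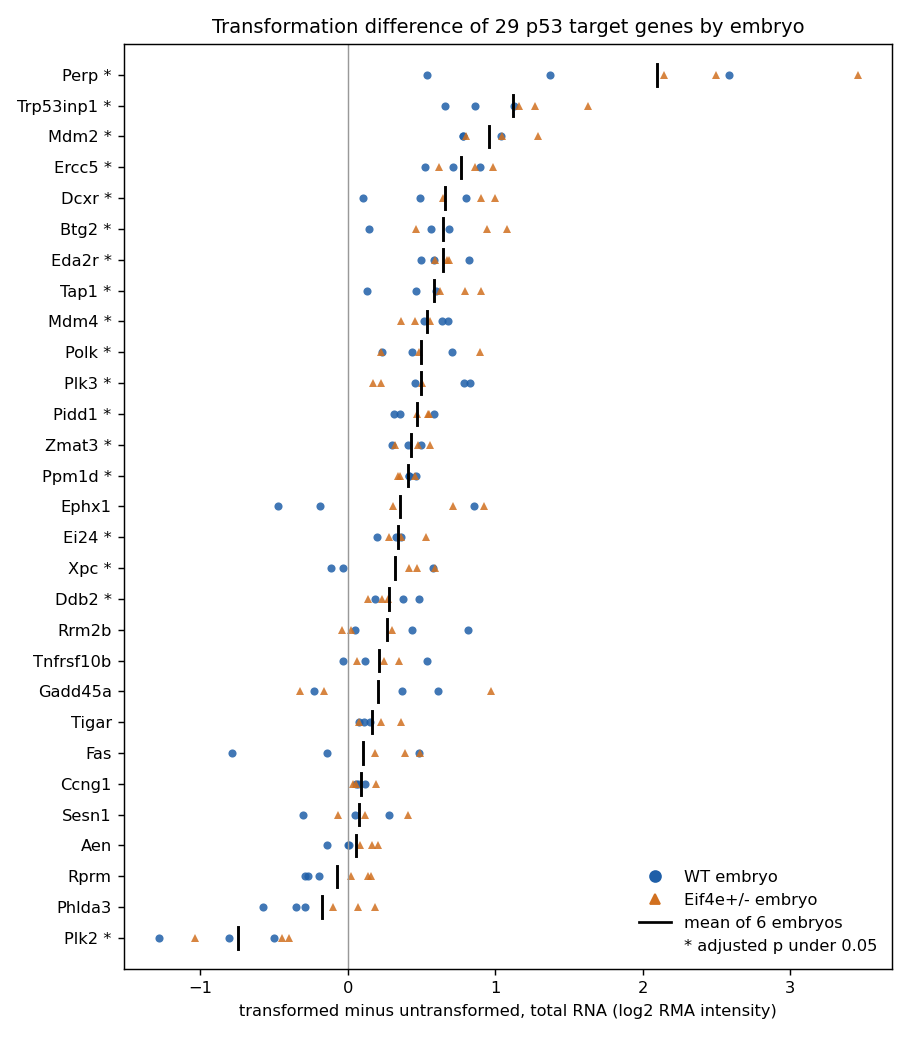
Each point is 1 embryo's transformed minus untransformed value in total RNA (log2, x axis) for the gene on the y axis; circles are WT, triangles Eif4e+/- and the black line is the mean of 6 embryos. Perp stands highest with a mean of 2.10 and Plk2 lowest with -0.74, and asterisks mark genes with an adjusted p under 0.05.

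All 3 measured target genes placed in the group of p53 control rose. Mdm2, the ubiquitin ligase that degrades p53, was at 11.11, 11.19 and 10.82 in untransformed WT embryos 1 to 3 and at 11.90, 11.97 and 11.85 in the same embryos transformed. In heterozygous embryos 1 to 3 it was at 10.84, 10.90 and 10.70 untransformed and at 11.89, 11.70 and 11.99 transformed. Every transformed culture was above every untransformed one. The mean difference was 0.96 ± 0.077 (log2 ± SE, 6 embryos), a 1.94-fold rise in intensity, with an adjusted p of 0.000427 in limma.

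Mdm4, the partner of Mdm2 that blocks the activation domain of p53, had WT values of 9.82, 9.98 and 10.07 untransformed and 10.47, 10.66 and 10.59 transformed. Its heterozygous values were 10.00, 10.19 and 10.22 untransformed and 10.45, 10.56 and 10.78 transformed. The states did not overlap, and the rise was 0.54 ± 0.053 (log2 ± SE, adjusted p = 0.000823 in limma). Ppm1d, which encodes the phosphatase WIP1 that takes damage phosphates off p53 and ATM, rose by 0.41 ± 0.047 (adjusted p = 0.00138 in limma). Its 6 embryos differed least among themselves of the 3, with transformation differences of 0.34 to 0.46.

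**Figure D2:**
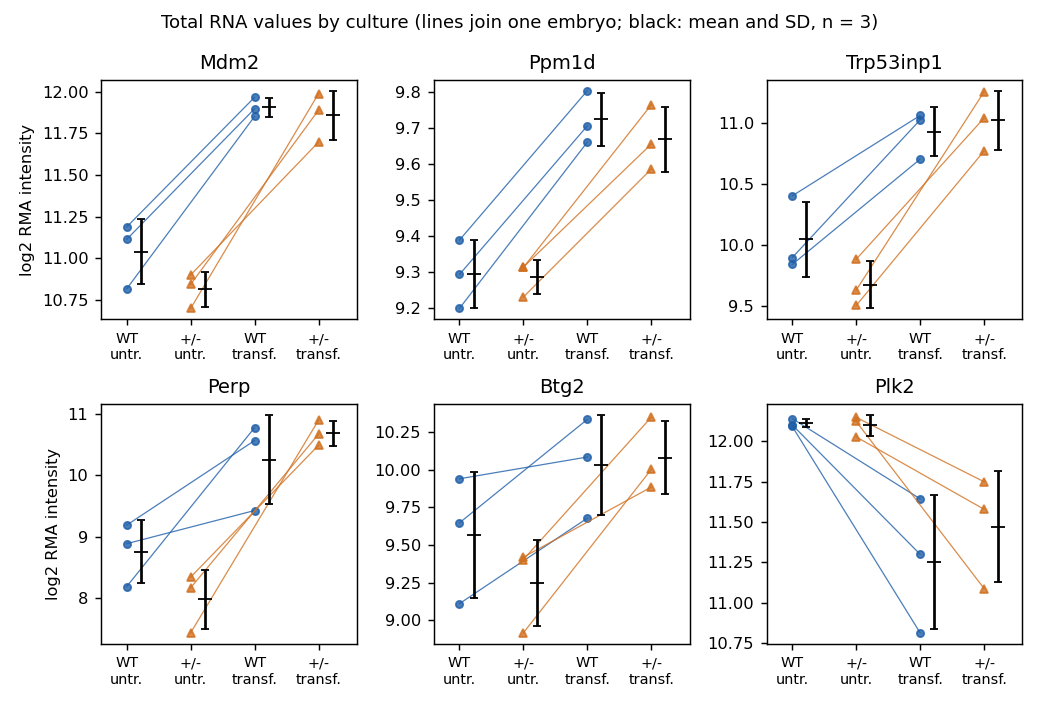
Total RNA values (log2 RMA intensity, y axis) of 6 genes in the 4 groups (x axis), with WT as circles, Eif4e+/- as triangles and a line joining the 2 states of an embryo; black marks are the mean and SD, n = 3. Mdm2, Ppm1d and Trp53inp1 separate the states in all cultures, Perp and Btg2 rise in every embryo with more spread in WT, and Plk2 falls in every embryo.

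Among the 10 measured genes of death signalling, 6 rose, none fell, and the median difference was 0.39. Perp, a desmosomal membrane protein that p53 uses in cell death, was at 8.89, 9.19 and 8.19 in untransformed WT cells and at 9.43, 10.56 and 10.77 in transformed WT cells. Heterozygous cells had 8.17, 8.34 and 7.44 untransformed and 10.67, 10.49 and 10.90 transformed. Every transformed culture was above every untransformed one, and WT embryo 1 moved least, by 0.54 against 1.38 to 3.46 in the others. The mean was 2.10 ± 0.28 (log2 ± SE), or 4.29-fold, with an adjusted p of 0.00219 in limma. Perp is a normal component of junctions in epithelium. Of 7 measured markers of epithelium 1 rose and 0 fell, against 15.0% and 15.8% of all genes. The marker that rose was Krt18 (1.76, adjusted p = 0.018 in limma). Their mean level was 7.55 to 7.75 in untransformed cultures and 7.41 to 8.31 in transformed ones, with WT embryo 1 the lowest of the transformed, and the defining marker Cdh1 lay between 6.42 and 6.87, beside an arrays' 40th percentile of 6.80 to 6.93. The part of such cells in the Perp result was not tested.

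Trp53inp1, a nuclear protein that helps p53 choose death targets, had WT values of 9.89, 10.40 and 9.84 untransformed and 11.03, 11.06 and 10.70 transformed. Its heterozygous values were 9.50, 9.88 and 9.63 untransformed and 10.77, 11.04 and 11.26 transformed. The states did not overlap, and the rise was 1.12 ± 0.087 (log2 ± SE), 2.17-fold, with an adjusted p of 0.000385 in limma.

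Eda2r, a death receptor of the TNF receptor family, went from 9.13, 9.23 and 8.98 to 9.63, 9.82 and 9.81 in WT embryos. Heterozygous embryos went from 8.89, 8.86 and 8.87 to 9.49, 9.54 and 9.56. These values were tight within each group, and the rise was 0.64 ± 0.059 (log2 ± SE, adjusted p = 0.000639 in limma). Pidd1, the scaffold of a caspase-activating complex, rose by 0.47, Zmat3, an RNA-binding protein, by 0.43, and Ei24, a protein of the endoplasmic reticulum, by 0.34, with adjusted p-values of 0.00155 to 0.00497 in limma.

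The other 4 death genes did not pass. The death receptors Fas and Tnfrsf10b, which encodes the mouse TRAIL receptor, had mean differences of 0.10 ± 0.15 and 0.21 ± 0.085, and the exonuclease gene Aen had 0.05 ± 0.050. Fas differed in sign between embryos, from -0.78 in WT embryo 2 and -0.14 in WT embryo 1 to 0.49 in WT embryo 3. Phlda3, a repressor of Akt, had a mean of -0.18 ± 0.064 (adjusted p = 0.0802 in limma).

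The 6 measured genes of cell cycle arrest went different ways, with 2 higher, 1 lower and a median difference of 0.15. Btg2, an antiproliferative cofactor of mRNA deadenylation, had WT values of 9.11, 9.94 and 9.65 untransformed and 9.68, 10.08 and 10.33 transformed. Its heterozygous values were 8.92, 9.40 and 9.42 untransformed and 10.00, 10.35 and 9.88 transformed. Groups overlapped between WT cultures because the embryos began at different levels, yet every embryo was higher when transformed. The rise was 0.65 ± 0.11 (log2 ± SE, adjusted p = 0.00478 in limma).

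Plk3, a stress kinase, went from 8.17, 8.09 and 8.20 to 8.63, 8.92 and 8.99 in WT embryos. Heterozygous embryos went from 8.10, 8.18 and 8.19 to 8.27, 8.68 and 8.41. All transformed values were above all untransformed ones, and the rise was 0.50 ± 0.075 (log2 ± SE, adjusted p = 0.00365 in limma).

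Plk2, a related kinase that acts at centrioles and is also induced by serum, was the 1 gene that fell. WT embryos had 12.09, 12.10 and 12.14 untransformed and 10.81, 11.30 and 11.64 transformed. Heterozygous embryos had 12.03, 12.15 and 12.12 untransformed and 11.58, 11.75 and 11.09 transformed. The untransformed values lay within a narrow band in both genotypes and the transformed values were lower and spread out. Plk2 fell by 0.74 ± 0.12 on the log2 scale, to 0.597 times the untransformed intensity (adjusted p = 0.00541 in limma). Ccng1, the cyclin G1 gene, was higher in all 6 embryos but only by 0.09 ± 0.049 (adjusted p = 0.219 in limma). In polysomal RNA Ccng1 was also higher in all 6 embryos, by a mean of 0.74, and was not called. Gadd45a, a stress sensor, ranged over embryos from -0.32 to 0.97, and Rprm, an arrest factor at G2, from -0.29 to 0.16.

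Of the 5 genes of DNA repair and nucleotide supply, 4 rose and none fell. Ercc5, the endonuclease XPG of nucleotide excision repair, went from 9.46, 9.69 and 9.44 to 10.36, 10.22 and 10.15 in WT embryos. In heterozygous embryos it went from 9.31, 9.55 and 9.50 to 10.17, 10.17 and 10.49. The states were well apart, and the rise was 0.77 ± 0.074 (log2 ± SE), 1.70-fold, with an adjusted p of 0.000749 in limma.

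Polk, a polymerase that copies past DNA lesions, had WT values of 10.17, 10.02 and 9.81 untransformed and 10.40, 10.46 and 10.52 transformed. Its heterozygous values were 9.81, 9.98 and 9.63 untransformed and 10.30, 10.21 and 10.53 transformed. The states did not overlap, and the rise was 0.50 ± 0.10 (log2 ± SE, adjusted p = 0.0113 in limma). Ddb2 and Xpc, both of which find damaged bases for excision repair, rose by 0.28 and 0.32. The Xpc call (adjusted p = 0.0457 in limma) was lost in 5 of 14 alternatives, namely with arrays centred on their median and without WT embryo 2 or any 1 of the heterozygous embryos; WT embryos 1 and 3 had differences of -0.11 and -0.03. Rrm2b, a ribonucleotide reductase subunit, did not pass at 0.26 ± 0.10 (adjusted p = 0.0984 in limma).

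In the mixed group of metabolic, redox and other genes 2 of 5 rose. Dcxr, a sugar reductase, had WT values of 8.78, 9.20 and 8.74 untransformed and 9.27, 9.31 and 9.55 transformed. Its heterozygous values were 8.59, 8.59 and 8.52 untransformed and 9.24, 9.59 and 9.43 transformed. The states did not overlap, although WT embryo 2 moved by only 0.10, and the rise was 0.66 ± 0.098 (log2 ± SE, adjusted p = 0.00344 in limma).

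Tap1, the peptide transporter of antigen presentation, went from 7.61, 7.71 and 7.50 to 8.21, 7.84 and 7.97 in WT embryos. Heterozygous embryos went from 7.53, 7.35 and 7.33 to 8.16, 8.15 and 8.24. The heterozygous embryos moved by 0.63 to 0.90 and the WT embryos by 0.13 to 0.60, and the mean rise was 0.59 ± 0.076 (log2 ± SE, adjusted p = 0.00209 in limma). Ephx1, an epoxide hydrolase, the sestrin gene Sesn1 and Tigar, a phosphatase of the glycolytic pathway, had differences of 0.36 ± 0.17, 0.08 ± 0.095 and 0.17 ± 0.055 and did not pass.

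For each gene whose 6 embryos moved the same way the exact two-sided sign-flip p was 0.03125, the smallest that 6 embryos allow. Apart from Xpc, the other 17 calls in total RNA held in all 14 alternatives tried. Within WT cells 13 genes rose and 2 fell (Plk2 and Phlda3, the latter by 0.40 on the log2 scale with an adjusted p of 0.027 in limma), against 7.62% and 9.08% of all genes. Within heterozygous cells 13 rose and 0 fell, against 5.68% and 8.58% of all genes. The count of 15 in WT was 8 without WT embryo 1, and the count of 13 in heterozygous cells was 8 without embryo 1 and 3 without embryo 3. Of the genes that rose, 11 did so in both genotypes; Ddb2 and Plk3 passed in WT cells and Btg2 and Dcxr in heterozygous cells. The test of the difference between the genotypes called 0 of 29, and 0% of all genes, with 5 of 29 at an unadjusted p under 0.05 and 4.88% of all genes.

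Further genes of the pathway were listed and counted in the same comparison. Over all genes 15.0% were called higher there and 15.8% lower, with a median difference of 0.03. Of 31 measured regulators of p53, 12 rose and 2 fell, with a median difference of 0.17. Hipk2, a kinase that activates p53 toward cell death, fell by 0.89, while Cdkn2a, the gene of Arf and p16, rose by 0.83, the checkpoint kinase gene Chek2 by 0.40 and the death-associated kinase gene Dapk1 by 1.02 (adjusted p 0.000335 to 0.00188 in limma). Of 23 further p53 targets 11 rose and 3 fell, with a median of 0.26. Among them Gtse1, a mitotic inhibitor of p53, rose by 0.67 and Slc19a2, a thiamine transporter, by 0.72, while Sfn, which encodes 14-3-3 sigma, fell by 0.77 and Thbs1, which encodes thrombospondin, by 1.77 (adjusted p 0.000357 to 0.00139 in limma). Of 21 measured cell cycle genes that p53 represses through p21 and the DREAM complex, 1 rose and 4 fell, with a median of -0.04. The count that fell is thus near the share of all genes. Bub1b, a checkpoint kinase gene, rose by 0.37. Those that fell were Prc1 (-0.41), a spindle protein gene, Foxm1 (-0.35), a mitotic transcription factor gene, the proliferation marker Mki67 (-0.33) and the S phase regulator E2f1 (-0.17). In polysomal RNA 4 of the 23 further targets rose and 2 fell, against 3.67% and 4.05% of all genes.

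Markers of cell types also moved with transformation, in a comparison where 15.0% of all genes rose and 15.8% fell. Of 10 fibroblast markers 5 fell and 0 rose, led by Thy1 (-3.49) and Pdgfrb (-2.00), and their mean level went from 10.02 to 10.34 in untransformed cultures to 8.32 to 10.11 in transformed ones. Of 6 macrophage markers 4 fell, with Lyz2 at -3.98, and Cd14 rose by 0.75; their mean level was 7.46 to 7.85 untransformed and 6.72 to 7.39 transformed. Of 5 endothelial markers 2 fell, with Emcn at -2.35, and Cdh5 rose by 0.54; the mean level was 7.10 to 7.42 untransformed and 6.57 to 6.91 transformed. None of the defining markers can be called absent, since arrays have no true zero. The part of these markers' cells in the rise of p53 targets was not tested.

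In polysomal RNA 7 of the 29 genes rose on transformation and 1 fell, against 3.67% and 4.05% of all genes. The genes that rose were Btg2, Ei24, Mdm2, Perp, Plk3, Ppm1d and Trp53inp1, and the gene that fell was Plk2. Each of the 8 was called in the same direction in total RNA of the same cultures. The median difference was 0.48 among the 29 genes and 0.01 among all genes. All 6 embryos were higher in 8 genes, against 7.32% of all genes, and lower in 1, against 6.74%.

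Btg2 had polysomal values of 5.38, 5.78 and 6.20 in untransformed and 6.41, 6.92 and 6.99 in transformed WT cells, and of 5.55, 5.44 and 5.48 against 6.61, 6.58 and 6.75 in heterozygous cells. The states did not overlap, and the rise was 1.07 ± 0.12 (log2 ± SE, adjusted p = 0.00265 in limma). Mdm2 had 6.60, 6.98 and 7.34 untransformed and 8.05, 8.40 and 7.54 transformed in WT, and 7.07, 6.98 and 6.45 against 8.15, 7.74 and 7.93 in heterozygous cells. WT embryo 3 moved least, and the rise was 1.06 ± 0.20 (adjusted p = 0.0175 in limma).

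Ei24 had 6.46, 8.19 and 7.27 untransformed and 8.59, 8.62 and 8.31 transformed in WT, and 7.81, 6.95 and 7.20 against 8.47, 8.48 and 8.97 in heterozygous cells. The untransformed values scattered widely, but every transformed value was above them, and the rise of 1.26 ± 0.24 (adjusted p = 0.0194 in limma) compares with 0.34 in total RNA. Plk3 had 5.10, 5.10 and 5.13 untransformed and 6.04, 6.02 and 6.30 transformed in WT, and 5.16, 4.88 and 5.15 against 5.59, 5.39 and 5.90 in heterozygous cells. The states did not overlap, and it rose by 0.79 ± 0.12 (adjusted p = 0.0088 in limma).

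Ppm1d had 4.92, 4.63 and 5.18 untransformed and 6.31, 5.65 and 5.46 transformed in WT, and 5.18, 4.90 and 4.68 against 5.56, 5.38 and 5.81 in heterozygous cells. Its rise of 0.78 ± 0.18 was the nearest of the 7 to the threshold (adjusted p = 0.0401 in limma). Trp53inp1 had 3.80, 4.31 and 4.31 untransformed and 4.82, 5.66 and 4.20 transformed in WT, and 4.01, 3.59 and 3.54 against 5.39, 5.85 and 6.30 in heterozygous cells. WT embryo 3 alone did not move upward, and the rise was 1.45 ± 0.24 (adjusted p = 0.0117 in limma).

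Perp had 3.51, 3.53 and 2.98 untransformed and 3.998, 5.35 and 4.96 transformed in WT, and 3.61, 3.58 and 2.77 against 6.05, 5.16 and 6.56 in heterozygous cells. It rose by 2.02 ± 0.30 (adjusted p = 0.00863 in limma), and on 2 of the 12 polysomal arrays it was not above the array's 40th percentile. Plk2 had 6.38, 6.54 and 8.38 untransformed and 5.14, 6.13 and 4.10 transformed in WT, and 7.17, 7.75 and 7.55 against 5.61, 5.84 and 4.66 in heterozygous cells. Plk2 fell by 2.05 ± 0.45 on the log2 scale (adjusted p = 0.0334 in limma), against a fall of 0.74 in total RNA, with the largest step in WT embryo 3.

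**Figure D3:**
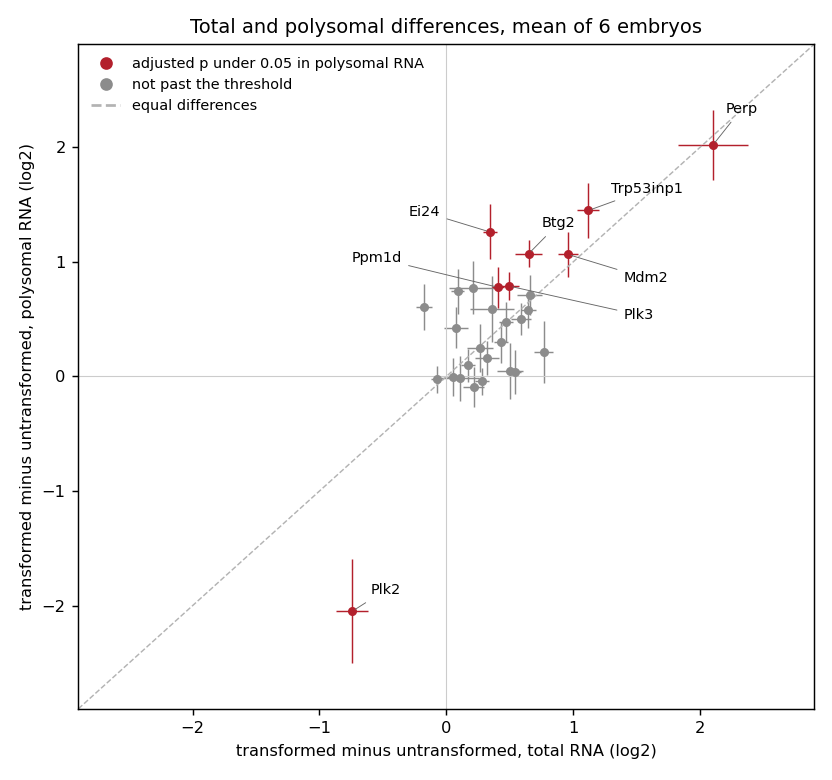
Mean transformed minus untransformed difference over 6 embryos in total RNA (log2, x axis) and polysomal RNA (log2, y axis) for 29 p53 target genes, with bars of ± 1 SE and a dashed line of equal differences. Red points passed an adjusted p of 0.05 in polysomal RNA; Perp lies at 2.10 and 2.02, Ei24 at 0.34 and 1.26, and Plk2 at -0.74 and -2.05.

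The polysomal counts moved with single embryos. Of the 29 genes 8 were called, but 13 without WT embryo 3, 5 without WT embryo 1, and 5, 3 and 2 without heterozygous embryos 1, 2 and 3. Counts over all genes moved as well. They were 544 higher and 601 lower, but 1794 and 952 without WT embryo 3 and 239 and 416 without WT embryo 1. Without heterozygous embryos 1, 2 and 3 they were 187 and 289, 169 and 328, and 78 and 228. Leaving out the cultures of the 2 arrays of narrow spread gave 8. The calls of Btg2 and Perp held in all 16 alternatives, that of Plk3 was lost only without heterozygous embryo 3, and those of Ei24 and Trp53inp1 were lost without heterozygous embryo 2 or 3. Mdm2 lost its call without WT embryo 1 or 2 or any heterozygous embryo, Plk2 without WT embryo 1 or any heterozygous embryo, and Ppm1d in 6 alternatives. Within WT cells Btg2 and Plk3 rose and none fell, against 0.378% and 0.904% of all genes. These 2 calls became 7 without WT embryo 3 and 0 without any other embryo. Over all genes, calls in WT cells went from 56 higher and 134 lower to 1293 and 442 without WT embryo 3. Within heterozygous cells Btg2, Perp and Trp53inp1 rose and none fell, against 0.479% and 1.31%. The 3 calls became 8 without WT embryo 3 and 0 without any heterozygous embryo. Over all genes, calls in heterozygous cells went from 71 higher and 195 lower to 554 and 767 without WT embryo 3. The test of the difference between genotypes called 0 genes, and 0% of all genes, with 2 of 29 at an unadjusted p under 0.05 and 2.12% of all genes.

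Translational efficiency (TE) is the polysomal minus the total log2 value of a culture. No p53 target gene was called in TE in limma, against 1.81% of all genes higher and 0.971% lower on transformation, and 8 of 29 had an unadjusted p under 0.05 against 16.6% of all genes. The median difference was -0.01 among the 29 genes and 0.01 among all genes, and its sign changed with the setting, from -0.09 without WT embryo 1 to 0.05 without WT embryo 3. The smallest p-values were those of Phlda3 (0.78 ± 0.19 log2, adjusted p = 0.0646 in limma), Gadd45a (0.57 ± 0.14, adjusted p = 0.0699) and Ei24 (0.92 ± 0.24, adjusted p = 0.0931). The share of all genes with every embryo on the same side was not counted in TE. In each of these 3, and in Ccng1 (0.65) and Plk3 (0.29), every embryo was higher when transformed. Every embryo was lower in Mdm4 (-0.50) and Ddb2 (-0.32). Ddb2 was above the 40th percentile on only 4 of 12 polysomal arrays. Its mean difference was -0.04 in polysomal RNA, beside 0.28 in total RNA. Plk2 had -1.31 ± 0.47 (adjusted p = 0.20 in limma). The other settings gave 3 calls without the replicate block, 2 with array weights, 1 with limma's trend and robust options and 4 without WT embryo 3. Within WT and within heterozygous cells 0 of the 29 genes were called in limma, against 0.701% and 0.297% of all genes, with 5 of 29 at an unadjusted p under 0.05 in each (10% and 10.3% of all genes). Heterozygous cells had 4 calls without the 2 arrays of narrow spread and 2 without WT embryo 3. Calls over all genes under these other settings are not given here, so these counts cannot be set against a share of all genes. In simulated data of the same size, a TE difference of 1 on transformation was recovered for 64% of the changed genes and a difference of 0.5 for 2%, against 96% and 68% in total RNA. For heterozygous minus WT in untransformed cells the shares were 44% and 0% in TE and 96% and 46% in total RNA. The simulation changed 50 of 14830 genes at each size, fewer than were called on transformation in the data, so the shares need not hold there.

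The second comparison was of heterozygous with WT cells, untransformed and transformed separately. No p53 target gene passed it in total RNA in either state, with 0% of all genes called in untransformed and 0.0472% in transformed cells. At an unadjusted p under 0.05 there were 4 of 29 genes (2.37% of all genes) untransformed and 8 of 29 (9.3% of all genes) transformed. An exact two-sided permutation test of 3 cultures against 3 cannot go below 0.1.

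In untransformed cells 25 of 29 differences were below 0, with a median of -0.10 against -0.01 for all genes, and all 10 death genes and all 5 metabolic genes were on that side. The groups did not overlap for 6 genes, all lower in heterozygous cells, namely Ccng1, Phlda3, Tnfrsf10b, Rprm, Dcxr and Eda2r, against 5.87% of all genes lower and 5.01% higher. Eda2r differed by -0.24 ± 0.079 (log2 ± SE; adjusted p = 1 in limma, exact permutation p = 0.1). Its 3 heterozygous values, at 8.86 to 8.89, were below its lowest WT value of 8.98. Tnfrsf10b had 10.12, 10.27 and 9.99 in WT and 9.92, 9.90 and 9.78 in heterozygous cells, a difference of -0.26 ± 0.10 (adjusted p = 1 in limma).

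On the upper side Mdm4 had a difference of 0.18 ± 0.10 and Xpc, with 7.67, 7.65 and 7.70 in WT and 7.63, 7.87 and 7.68 in heterozygous cells, of 0.05 ± 0.15. Both overlapped between the genotypes. Mdm2 differed by -0.23 ± 0.11 untransformed and by -0.05 ± 0.11 transformed, with overlap in both states. The 21 cell cycle genes that p53 represses through p21 and DREAM were all on the other side of 0 in untransformed cells, with a median of 0.34 and 0 called; their mean level was 9.29 to 9.80 in WT and 9.64 to 9.98 in heterozygous cultures, and its part in the p53 targets' values was not tested. Markers of other cells also differed: all 6 macrophage markers were below 0, and the mean of the 5 endothelial markers was 7.26 to 7.42 in WT and 7.10 to 7.21 in heterozygous cultures untransformed, and 6.80 to 6.91 and 6.57 to 6.64 transformed, with 0 called. Their part was not tested either.

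**Figure D4:**
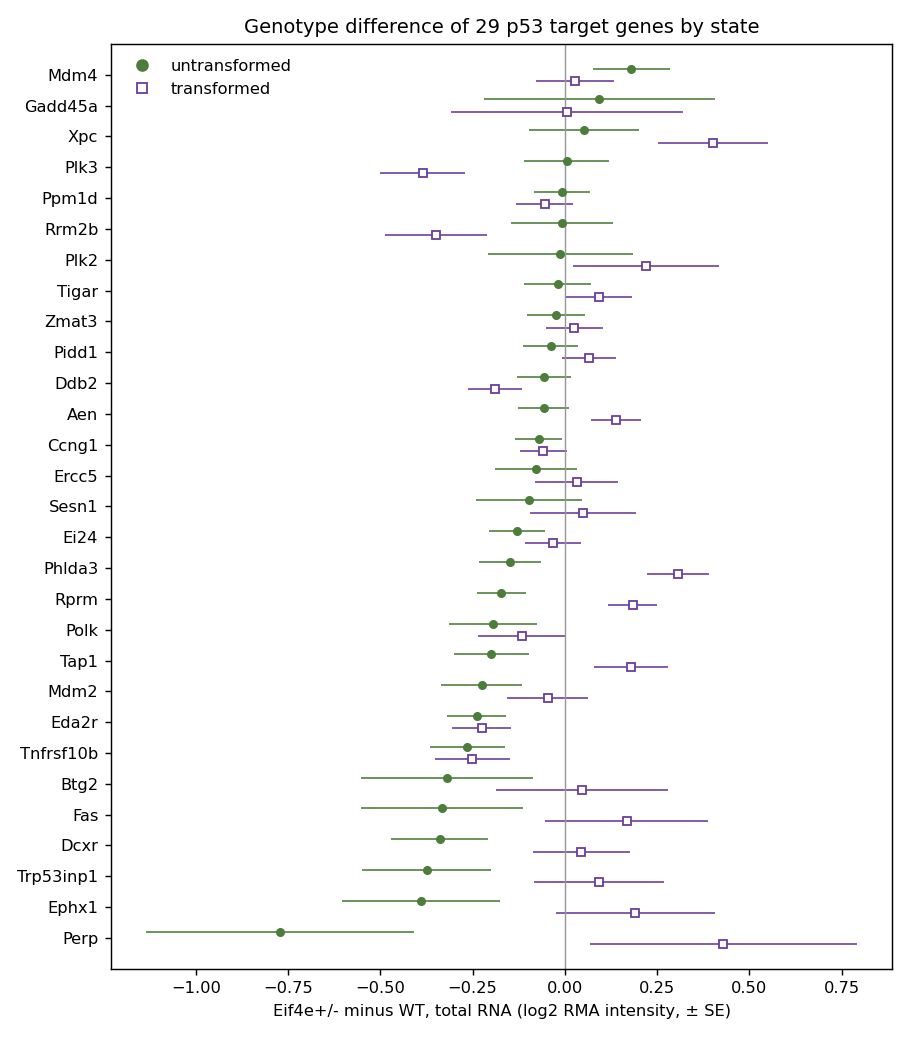
Eif4e+/- minus WT difference in total RNA (log2, x axis, with bars of ± 1 SE, n = 3 against 3) for the 29 genes (y axis), untransformed as filled circles and transformed as open squares. Untransformed, 25 of 29 points lie below 0, and transformed, 19 of 29 lie above 0 (14 without WT embryo 1); none passed the adjusted test.

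In transformed cells 19 of 29 differences were above 0, with a median of 0.04 against 0.01 for all genes. This balance rested on single embryos, since 14 were above and 15 below 0 without WT embryo 1 (median -0.0075) and 15 above and 14 below without heterozygous embryo 2 (median 0.03). Phlda3 and Rprm were higher in every heterozygous culture, against 5.81% of all genes, and Ccng1, Tnfrsf10b, Rrm2b, Ddb2 and Eda2r lower in every one, against 4.44%. Ccng1, Tnfrsf10b and Eda2r were thus lower in heterozygous cells without overlap in both states. The states share their embryos, so this is no independent repeat. The share of all genes without overlap in both states was not counted. Eda2r differed by -0.23 ± 0.079 transformed (adjusted p = 0.422 in limma), close to its untransformed difference.

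Phlda3 had 9.26, 9.43 and 9.45 in transformed WT and 9.60, 9.83 and 9.63 in transformed heterozygous cells, a difference of 0.31 ± 0.083 (adjusted p = 0.311 in limma). Untransformed, its values were 9.83, 9.78 and 9.74 in WT and 9.70, 9.64 and 9.57 in heterozygous cells, so the order of the genotypes was turned. Rprm had 7.37, 7.42 and 7.44 in transformed WT and 7.50, 7.67 and 7.62 in transformed heterozygous cells, with a difference of 0.18 ± 0.067 (adjusted p = 0.446 in limma). Untransformed, Rprm stood at 7.66, 7.62 and 7.71 in WT and at 7.48, 7.54 and 7.46 in heterozygous cells, again in the other order. Plk3 differed by -0.39 ± 0.11 in transformed cells (adjusted p = 0.352 in limma), with overlap, and by 0.0044 untransformed.

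In polysomal RNA no p53 target gene and 0% of all genes were called between the genotypes in either state, with 2 of 29 untransformed (1.67% of all genes) and 3 of 29 transformed (3.22% of all genes) at an unadjusted p under 0.05 in limma. Untransformed, Rprm had 4.98, 4.79 and 4.86 in WT and 4.23, 4.26 and 4.32 in heterozygous cells, a difference of -0.61 ± 0.17 (adjusted p = 1 in limma, exact permutation p = 0.1). Ddb2 differed by -0.33 ± 0.14 and was above the 40th percentile on only 4 of 12 polysomal arrays. On the upper side Tigar and Ercc5 had the smallest p, with 0.26 ± 0.18 and 0.38 ± 0.32 and overlap between the genotypes.

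Transformed, Perp and Trp53inp1 had the smallest p on the upper side of polysomal RNA, with 1.15 ± 0.40 and 0.95 ± 0.33, and Plk3 and Eda2r on the lower side with -0.49 ± 0.17 and -0.48 ± 0.24. For Plk3 the 3 heterozygous values, at 5.39 to 5.90, were below the lowest WT value of 6.02. The share of all genes without overlap was not counted in polysomal RNA. The adjusted p-values in limma were 1 for all 4 genes.

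In TE no p53 target gene and 0% of all genes were called between the genotypes in either state, with 4 of 29 untransformed (1.45% of all genes) and 2 of 29 transformed (2.9% of all genes) at an unadjusted p under 0.05 in limma. Untransformed, Perp stood at -5.38, -5.66 and -5.21 in WT and at -4.57, -4.76 and -4.67 in heterozygous cells. The difference was 0.75 ± 0.25 (adjusted p = 1 in limma), beside -0.77 in total RNA and -0.02 in polysomal RNA. Perp had polysomal values of 2.77 to 3.61 in untransformed cultures, beside 40th percentiles of 3.16 to 3.32 on these polysomal arrays. In embryo 3 of each genotype its value was below that percentile. Tap1 was also higher in TE in heterozygous cells, by 0.40 ± 0.18, and Rprm and Gadd45a had -0.44 ± 0.19 and -0.42 ± 0.19.

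Transformed, Trp53inp1 had TE values of -6.20, -5.40 and -6.50 in WT and of -5.38, -5.19 and -4.95 in heterozygous cells, a difference of 0.86 ± 0.29 (adjusted p = 1 in limma). The groups did not overlap, and the lowest value was that of WT embryo 3, 1 of the 2 arrays of narrow spread. Trp53inp1 was the only 1 of 29 genes higher in heterozygous cells without overlap here. The share of all genes was not counted for TE. Perp had 0.72 ± 0.25, Tigar -0.31 ± 0.18 and Sesn1 -0.30 ± 0.23 (adjusted p = 1 in limma for all 3). The test of the difference between the states called 0 genes in TE, and 0% of all genes, with 0 of 29 at an unadjusted p under 0.05 and 1.95% of all genes.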

How the data were processed

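Total and polysomal RNA of 12 cultures were amplified with a whole-transcript kit, per the labels' protocols, and measured on Affymetrix Mouse Gene 1.0 ST microarrays, per the series description. The authors deposited log2 intensities made with RMA, per the submitters' processing notes; its version and the genome build are not given in the sources used here. The array means within a fraction were nearly equal, so a change common to all genes would not be seen. Of 25668 probe sets, 20777 carried 1 gene symbol in the platform annotation, 232 several and 4659 none; only the first were used, with the brightest probe set per gene. Genes were kept where at least 3 arrays had a value above their 40th percentile. Differences were fitted with limma 3.58.1 in R 4.3.3 over all kept genes, with Benjamini-Hochberg adjusted p-values and a threshold of 0.05. Genotype differences came from the 4 group means; transformation differences and their interaction with genotype had the embryo as a block, because the labels match the 2 states of an embryo. Deviations of the 2 states of an embryo from their group means correlated at -0.06 to 0.22 in total RNA and at -0.44 to 0.06 in polysomal RNA. The fits were tested on simulated data.

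The members and the gene lists were chosen with earlier results of these data known. Named in full were Mdm2, at most 12 genes called on transformation with all 6 embryos moving the same way, by size in total RNA, and the 2 genes of smallest p in each direction of each genotype comparison; Trp53 and Cdkn1a, also on that list, have no value. Beyond the rule, genes of a polysomal call and a few others were named after their values were seen. Of other lists, at most 4 genes of smallest p were named, except that all called cell cycle genes were named. Of cell type markers the defining ones were named as well. Promoter sequences are those of RefSeq. The alternatives were other filters, probe set averaging, centring, quantile normalization, array weights, limma's trend and robust options, no block, and leaving out each embryo; 2 for polysomal RNA were added after seeing the data.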

Additional observations from a re-analysis of the deposited data

Results flagged for a closer look

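In 2 genes the 3 WT embryos moved one way on transformation and the 3 heterozygous embryos the opposite way. For Rprm the heterozygous minus WT difference of the transformation differences was 0.36 in total RNA (limma interaction, adjusted p = 0.916) and 0.73 in polysomal RNA (adjusted p = 1 in limma). For Tigar it was -0.59 in TE (adjusted p = 1 in limma). None of the 3 passed over all genes. The rule was applied to 29 genes in each of 3 measures, and the share of all genes that meet it was not counted.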

How the results depend on the processing

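Of 29 genes, the number called on transformation in total RNA was 17 to 20 in all alternatives tried (18 reported). Leaving out 1 embryo at a time gave 8 to 12 in WT cells and 3 to 16 in heterozygous cells. In polysomal RNA the range was 2 to 13 for the mean of genotypes, 0 to 7 for WT and 0 to 8 for heterozygous cells, and in TE 0 to 4 for the mean of genotypes and 0 to 2 for heterozygous cells. Polysomal RNA of WT cells had 0 calls with quantile normalization, 0 with trend and robust settings and 0 without the 2 arrays of narrow spread; heterozygous cells had 8 with array weights and 8 without these arrays. TE had 2 calls with array weights, 3 with no replicate block and 1 with trend and robust settings for the mean of genotypes, and 1 with array weights and 4 without the 2 arrays in heterozygous cells. The cause of these shifts was not tested, and in polysomal RNA the counts over all genes shifted as well. Those of TE under other settings are not given here. Without the replicate block the counts were 20 in total and 12 in polysomal RNA. No gene called on transformation changed direction. Without WT embryo 1 the median heterozygous minus WT difference of the 29 genes in transformed total RNA was -0.0075 (0.04 reported), and without heterozygous embryo 2 the median transformation difference in TE was 0.04 (-0.01 reported). The spread of the polysomal arrays limits polysomal RNA and TE.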
